A study of Mus musculus with 39 samples.

Results

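In wild-type C2C12 cells, a mouse myoblast line, 63 of 29980 genes were transient around day 2 of differentiation. They were chosen on median counts per 1e6 (CPM, the count of a gene scaled to a library total of 1e6): the WT day 2 median had to be 5 CPM or more and at least 2 times the WT medians of both day 0 and day 6. Of the 9995 genes with a WT day 2 median of 5 CPM or more, 0.63% met this rule. The WT values of days 0, 2 and 6 chose the genes, so they are given here as description and carry no test. Tests were kept to knockout libraries and to days 1 and 4.

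Myoblasts that lose serum leave the cell cycle, switch on muscle genes and fuse into myotubes. Between the proliferating state and the myotube there is a window in which signals between cells, such as Notch ligands and receptors and insulin-like growth factors with their binding proteins, set how many cells go on to differentiate. The integrated stress response, in which the transcription factor ATF4 raises genes of amino acid supply and stress, and the interferon response, an antiviral programme, can both be active in the same window.

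Messenger RNA was sequenced in 39 libraries. Wild-type (WT) cells and cells in which Flnc was knocked out by CRISPR with a guide to its first exon (KO) were collected before serum withdrawal (day 0) and after 1, 2, 4 and 6 days in 2% horse serum. Each group held 4 libraries, numbered 1, 3, 4 and 5, except KO day 2, which held 3 (1, 3 and 5), and values below are listed in that order. Beside the knockout the labels name no other allele or agent. They do not say whether the KO cells are 1 clone or whether replicates are separate cultures, so p-values measure the spread between these libraries, which may be technical.

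Flnc, which encodes the muscle actin crosslinker filamin C, was lower in every KO library than in any WT library, at 16.02 to 158.9 CPM against 419.1 to 2207 CPM. All 8 myoblast markers listed had counts. Group medians stayed under 1 CPM throughout for 5 of 7 adipocyte markers (Adipoq among them), 6 of 8 of bone and cartilage (Sp7), 6 of 8 of neurons and Schwann cells (Snap25), 4 of 7 of macrophages and blood (Adgre1), 5 of 6 of endothelium and 3 of 8 of fibroblasts. Other listed markers were present and differed between the lines: median Cebpa was 73.94 CPM on KO day 0 and 89.0 on KO day 4 against 18.27 and 2.161 in WT, Dcn was 206.6 CPM on WT day 2 against 3.904 in the KO, and Tubb3 was 250.5 CPM on WT day 0 against 33.24. Members of the same lists also went the other way. Median Pparg was 10.07 CPM on KO day 4 against 21.97 in WT. Pdgfra was 5.072 CPM on WT day 2 against 40.49 in the KO, and S100b was 0.465 CPM on WT day 4 against 6.359. Ly6a had medians of 159.0 to 391.1 CPM and Sox9 of 41.27 to 146.5 CPM over the groups. The summed fibroblast markers ran from 219.6 to 1006 CPM on WT day 2 and from 179.4 to 407.7 on KO day 2, and the part of such cells or states in the results was not tested. Library totals ran from 6838281 to 28902526 counts, with the shallowest libraries at day 6. Some libraries stood apart. WT day 2 replicate 4 had 43430 CPM summed over 34 genes of the unfolded protein response, against 6576 to 7726 CPM in the other WT day 2 libraries. The KO libraries numbered 1 differed more than 2-fold from the other KO libraries of their day, on every day, in 120 of 13780 genes, against 13 to 30 genes for the KO libraries numbered 3, 4 (on 4 days) and 5, and Mest, Ndst4 and Sirpa were among the 120. Results are given without these libraries where that changes a call.

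The rule leaves only days 1, 2 and 4 as the day of the highest WT median, so the counts that follow are description. Over all 5 WT days the highest median was on day 2 in 45 of the 63 genes and on day 1 in the other 18. In 18 genes every WT day 2 library was above every WT day 0 and day 6 library, and 28 genes met the rule whichever single WT library of days 0, 2 and 6 was left out. The 4 WT day 2 libraries did not carry the genes equally: replicates 1, 3, 4 and 5 were the highest of them for 9, 10, 20 and 24 genes. Without each of these in turn 16, 20, 15 and 17 genes left the list. Just inside the fold limit stood Gfra1, at WT medians of 40.26, 81.18 and 23.42 CPM on days 0, 2 and 6, and just outside it stood Ifi27, at 30.02, 81.06 and 40.61 CPM. Just inside the level limit stood Ppp1r3b, with a WT day 2 median of 5.05 CPM, and just outside it stood Mgarp, with 4.47 CPM.

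**Figure D1:**
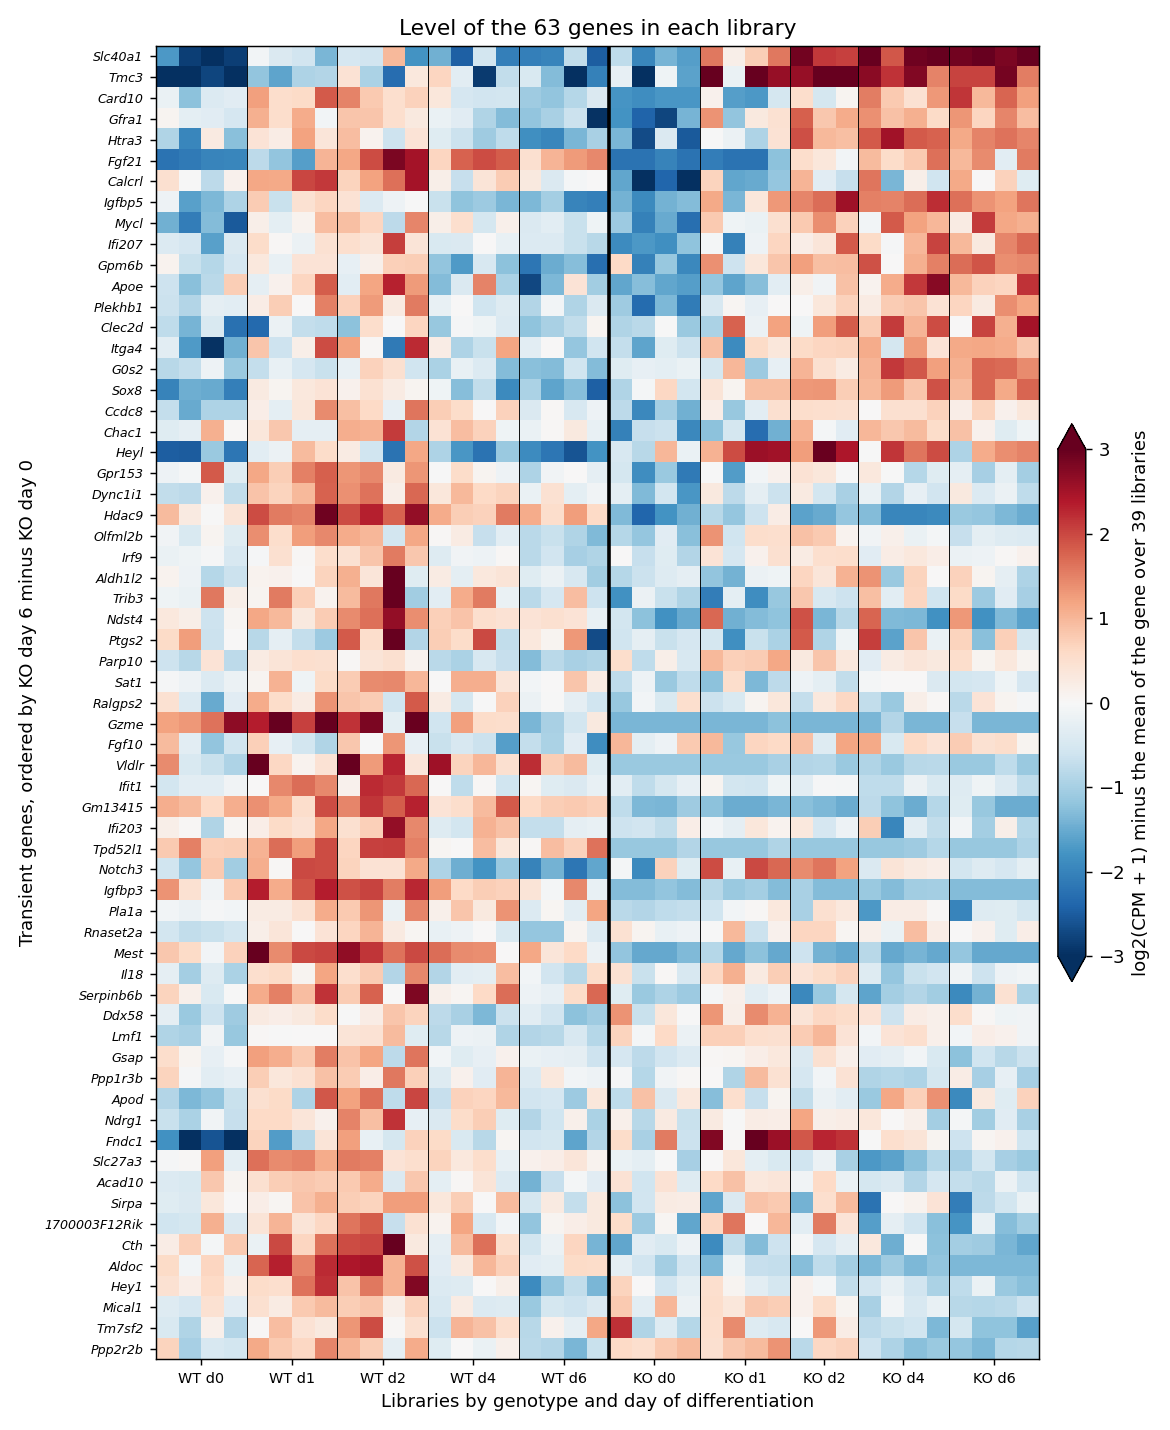
Level of each of the 63 genes (rows) in each of the 39 libraries (columns, grouped by genotype and day), as log2(CPM + 1) minus the mean of the gene over all libraries, with rows ordered by the mean of KO day 6 minus that of KO day 0. WT columns are high on day 2 by the choice of genes, and many rows are also high on WT day 1, which the rule did not use. In the KO the upper rows stay high to day 6 while some rows are low on all 5 days.

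Promoters of the genes were read from RefSeq on GRCm38.p6, which held 51 of the 63 genes with 64 start sites. The E-box CAGCTG, a form bound by MyoD and myogenin, stood on either strand in the 250 bases before 28.1% of these start sites, against 13.0% of the 32851 start sites of all genes. The other E-box form searched, CACCTG, stood at 18.8% of the start sites of the 63 genes and at 17.2% of all. An exact match is a description of the letters, not of binding. The promoters printed here were picked, after the data were seen, because they hold a match: a first choice of Notch3, Chac1, Trib3 and Irf9 held no match of the motif of their pathway. Htra3 and Card10, which rose in the KO, and Hdac9, which was low there, show the CAGCTG match in capitals, with the 250 bases before the start site written 5′ to 3′ along the gene's strand (for Hdac9, 1 of its 2 start sites).

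Htra3 (chr5:35679781-35680030, minus strand): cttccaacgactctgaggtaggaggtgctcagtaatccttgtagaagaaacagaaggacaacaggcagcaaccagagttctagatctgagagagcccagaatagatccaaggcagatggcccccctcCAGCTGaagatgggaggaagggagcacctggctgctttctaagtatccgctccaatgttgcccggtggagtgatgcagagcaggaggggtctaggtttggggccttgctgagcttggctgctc
Card10 (chr15:78803043-78803292, minus strand): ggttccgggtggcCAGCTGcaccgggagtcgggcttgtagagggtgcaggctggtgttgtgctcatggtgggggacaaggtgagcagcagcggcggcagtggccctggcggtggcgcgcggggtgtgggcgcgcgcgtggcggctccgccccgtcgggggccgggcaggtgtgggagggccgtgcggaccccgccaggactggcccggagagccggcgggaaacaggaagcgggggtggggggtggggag
Hdac9 (chr12:34917096-34917345, minus strand): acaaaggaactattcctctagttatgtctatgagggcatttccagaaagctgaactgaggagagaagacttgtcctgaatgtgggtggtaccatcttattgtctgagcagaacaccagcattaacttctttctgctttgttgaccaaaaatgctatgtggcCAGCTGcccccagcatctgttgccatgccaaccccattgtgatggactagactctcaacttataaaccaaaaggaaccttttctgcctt

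The C/EBP-ATF element TGATGCAAT, which ATF4 can bind, was searched because 6 of the genes belong to the integrated stress response. It stood at 1.6% of the start sites of the 63 genes, which is Fgf21 alone, and at 0.2% of all. The interferon-stimulated element, searched as GAAANNGAAA and added after the genes were seen, stood at 7.8% against 3.0%, with matches at Ifit1, Ifi203, Ifi207, Gfra1 and Clec2d. The RBPJ motif of Notch targets, GTGGGAA, was also added after the genes were seen and stood at 4.7% against 5.4%. In all 11 motifs were searched, each on both strands and without a test. The others were CCAAT (21.9% of the start sites of the 63 genes, 33.8% of all), TATAAA (14.1% and 12.4%), the MEF2 core TAAAAATA (1.6% and 2.5%), the CRE TGACGTCA (1.6% and 1.5%), MEF3 as TCAGGTTTC (0.0% and 0.4%) and the endoplasmic reticulum stress element, ERSE (0.0% and 0.1%). The CCAAT motif is also the first part of ERSE. Fgf21, Ifit1 and Ifi207 carry the stress and interferon matches, in capitals, on whichever strand they lie.

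Fgf21 (chr7:45615491-45615740, minus strand): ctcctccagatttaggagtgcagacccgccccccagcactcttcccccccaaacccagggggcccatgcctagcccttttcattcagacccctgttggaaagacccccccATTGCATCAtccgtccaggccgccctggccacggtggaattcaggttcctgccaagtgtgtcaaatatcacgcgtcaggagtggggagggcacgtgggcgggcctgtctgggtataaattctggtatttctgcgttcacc
Ifit1 (chr19:34640639-34640888, plus strand): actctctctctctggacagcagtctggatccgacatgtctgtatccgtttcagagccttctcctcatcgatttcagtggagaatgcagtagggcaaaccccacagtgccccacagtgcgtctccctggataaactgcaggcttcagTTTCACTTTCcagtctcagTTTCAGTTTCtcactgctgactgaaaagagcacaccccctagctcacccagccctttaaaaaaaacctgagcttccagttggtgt
Ifi207 (chr1:173741810-173742059, minus strand): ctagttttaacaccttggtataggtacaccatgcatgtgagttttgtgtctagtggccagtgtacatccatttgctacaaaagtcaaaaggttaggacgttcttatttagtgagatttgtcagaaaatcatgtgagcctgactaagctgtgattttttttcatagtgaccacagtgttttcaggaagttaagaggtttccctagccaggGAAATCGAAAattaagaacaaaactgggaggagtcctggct

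In the KO, the median fell to 0.5 times its day 2 value or less by day 6 in 16 of the 63 genes, and was above its day 2 value in 21. The highest KO median fell on day 0 in 1 of the 63 genes (Aldoc), on day 1 in 16, on day 2 in 21, on day 4 in 12 and on day 6 in 12, and Gzme had KO medians of 0 on all 5 days. Among the 11011 genes with a median of 5 CPM or more in any group, the same shares were 35.0%, 14.4%, 12.5%, 13.2% and 24.8%. The rule applied to KO medians was met by 44 genes, of which 4 were shared: Olfml2b, Notch3, Heyl and Fndc1. These are 6.35% of the 63 genes and 9.09% of the 44. Of the 9963 genes with a KO day 2 median of 5 CPM or more, 0.442% met the rule in the KO. On KO day 2, 43 of the 63 genes reached that median. The KO median was below 1 CPM on all 5 days in 8 genes, or 12.7%, against 1.27% of the 11011. The 63 genes had to reach 5 CPM in WT, whereas the 11011 could reach it in either line. The choice thus favours this excess, and nothing is read from it.

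Within the KO, 23 genes passed the test for a rise to day 2 and 4 for a fall from day 2 to day 6, and the 4 were not all among the 23. From day 0 to day 2, 23 of the 63 genes rose and 0 fell in edgeR's quasi-likelihood test (Benjamini-Hochberg adjusted p under 0.05, over 13780 genes), where 12.7% of all genes tested rose and 13.9% fell. The median log2 change was 0.94 for the 63 genes and -0.03 for all, and 28 of the 63 passed an unadjusted p of 0.05. DESeq2 gave no call of a fall either. From day 2 to day 6, 4 of the 63 fell and 0 rose, where 2.11% of all genes fell and 1.65% rose, and the median log2 change was -0.45 (-0.43 with genes at 0 counts set to their bound) against -0.01. These 4 were Fndc1, Notch3, Ppp2r2b and Mical1. Ppp2r2b and Mical1 had not risen first, with KO day 2 medians at 0.9436 and 0.829 times those of KO day 0. For this fall or rise, 16 of the 63 passed an unadjusted p of 0.05, and DESeq2 called 9 falls and 1 rise. The count of falls depended on single libraries: it was 0 without KO day 2 replicate 3, 1 without KO day 6 replicate 3 and 2 without any of KO day 2 replicate 5, KO day 6 replicate 1, KO day 6 replicate 4 or the KO libraries numbered 1 together. From day 0 to day 6, 19 of the 63 were higher and 4 lower, where 20.5% of all genes were higher and 23.1% lower. Both day 6 comparisons share libraries with the day 2 one, so their counts are set side by side and not combined.

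A first set of genes rose in the KO and was still high on day 6. Igfbp5, an insulin-like growth factor binding protein made by differentiating myoblasts, lies at chr1:72857932-72874884 (GRCm38, minus strand) and had the highest WT day 2 median in CPM, a scale that is not per length. In WT it was at 2990, 1075, 1296 and 1735 CPM on day 0, 5623, 2100, 4548 and 5165 on day 1, 4472, 2506, 2973 and 3285 on day 2, 2073, 1437, 1567 and 1271 on day 4, and 1292, 1623, 842.8 and 799.9 on day 6. In the KO it was at 1234, 886.0, 1240 and 1345 CPM on day 0, 7308, 1276, 4165 and 8154 on day 1, 9178, 10600 and 19180 on day 2, 9459, 9285, 10620 and 15440 on day 4, and 10420, 8365, 7596 and 10050 on day 6. The lines overlapped on days 0 and 1, and from day 2 on every KO library was above every WT library. Igfbp5 rose by a log2 change of 3.44 (SE 0.35) in the KO from day 0 to day 2 and was 2.93 (SE 0.16) above day 0 on day 6 (edgeR adjusted p = 4.94e-07 and 2.83e-07). At day 4 it was higher in the KO than in WT by 2.74 (SE 0.23, edgeR adjusted p = 1.53e-06).

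Slc40a1 encodes ferroportin, the iron exporter of the cell membrane. It was at 8.644, 3.511, 2.806 and 3.495 CPM on WT day 0, at 29.35, 22.73, 20.61 and 11.43 on day 1, at 21.41, 20.53, 61.32 and 8.26 on day 2, at 10.83, 4.871, 20.66 and 6.704 on day 4, and at 6.712, 7.159, 18.0 and 4.733 on day 6. In the KO it was at 17.85, 7.258, 11.12 and 9.221 CPM on day 0, at 94.34, 34.87, 52.43 and 94.97 on day 1, at 235.8, 138.4 and 132.3 on day 2, at 325.6, 114.4, 239.8 and 267.6 on day 4, and at 236.8, 286.0, 226.2 and 263.0 on day 6. The groups overlapped only on day 0. The log2 change between the lines was 1.72 (SE 0.42) at day 1 and 4.37 (SE 0.53) at day 4 (edgeR adjusted p = 0.00932 and 1.12e-07).

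Htra3, a secreted serine protease, took the same form. Its WT day 2 libraries held 29.59, 16.35, 9.494 and 20.29 CPM and its WT day 6 libraries 3.48, 3.123, 5.197 and 7.212, while the KO held 60.13, 30.82 and 29.08 on day 2, 56.63, 91.93, 56.16 and 54.23 on day 4, and 34.51, 44.02, 48.38 and 43.35 on day 6. At day 1 the KO did not pass the test against WT (log2 change -0.73), and at day 4 it was higher by 2.78 (SE 0.26, edgeR adjusted p = 5.62e-05), with no overlap between the lines.

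Card10, a scaffold of NF-kB signalling, was almost silent in KO myoblasts, at 0.07083, 0.0, 0.08427 and 0.08197 CPM on day 0 (6 counts in all). It was at 3.008, 0.1543, 0.1122 and 1.525 CPM on KO day 1, at 4.223, 1.543 and 2.889 on day 2, at 9.516, 5.264, 4.005 and 7.996 on day 4, and at 15.06, 6.152, 11.23 and 7.511 on day 6. WT held 7.625, 4.271, 4.421 and 12.16 CPM on day 1 and 3.628, 1.566, 1.45 and 1.508 on day 4, so that the KO lay below WT on day 1 and above it on day 4 without overlap. The change was -2.54 (SE 1.00) at day 1 (edgeR adjusted p = 0.00203, and 0.0911 in a fit of only the groups compared) and 1.63 (SE 0.41) at day 4 (0.0305), and the day 4 call was lost without any of WT day 4 replicates 3, 4 and 5, KO day 4 replicates 1 and 5 or the KO libraries numbered 1 together (adjusted p up to 0.0858).

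Further genes of this course covered several roles. Mycl, a MYC family transcription factor, rose by 2.72 (SE 0.36) in the KO to day 2 and was 3.05 (SE 0.49) above day 0 on day 6, with KO day 6 libraries at 40.36, 148.8, 77.04 and 72.41 CPM. Gfra1, a receptor for GDNF, rose by 3.38 (SE 0.43) to day 2 and was 3.21 (SE 0.36) above day 0 on day 6. Calcrl, the receptor of calcitonin gene-related peptide, had changes of 2.99 and 3.29 at those days. The KO day 2 and day 6 values of these 3 genes did not overlap KO day 0. Tmc3, a member of the transmembrane channel-like family, was higher in the KO than in WT at day 1 by 3.97 (SE 0.81) and at day 4 by 2.77 (SE 1.00), with KO day 2 libraries at 80.42, 115.8 and 106.6 CPM against 17.14, 5.875, 1.76 and 15.69 in WT (edgeR adjusted p = 4.93e-04 and 0.00601). Its KO day 6 libraries held 53.67, 53.05, 96.89 and 37.72 CPM, and its KO medians of 106.6 and 53.36 on days 2 and 6 were just short of the fall the rule asks for.

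**Figure D2:**
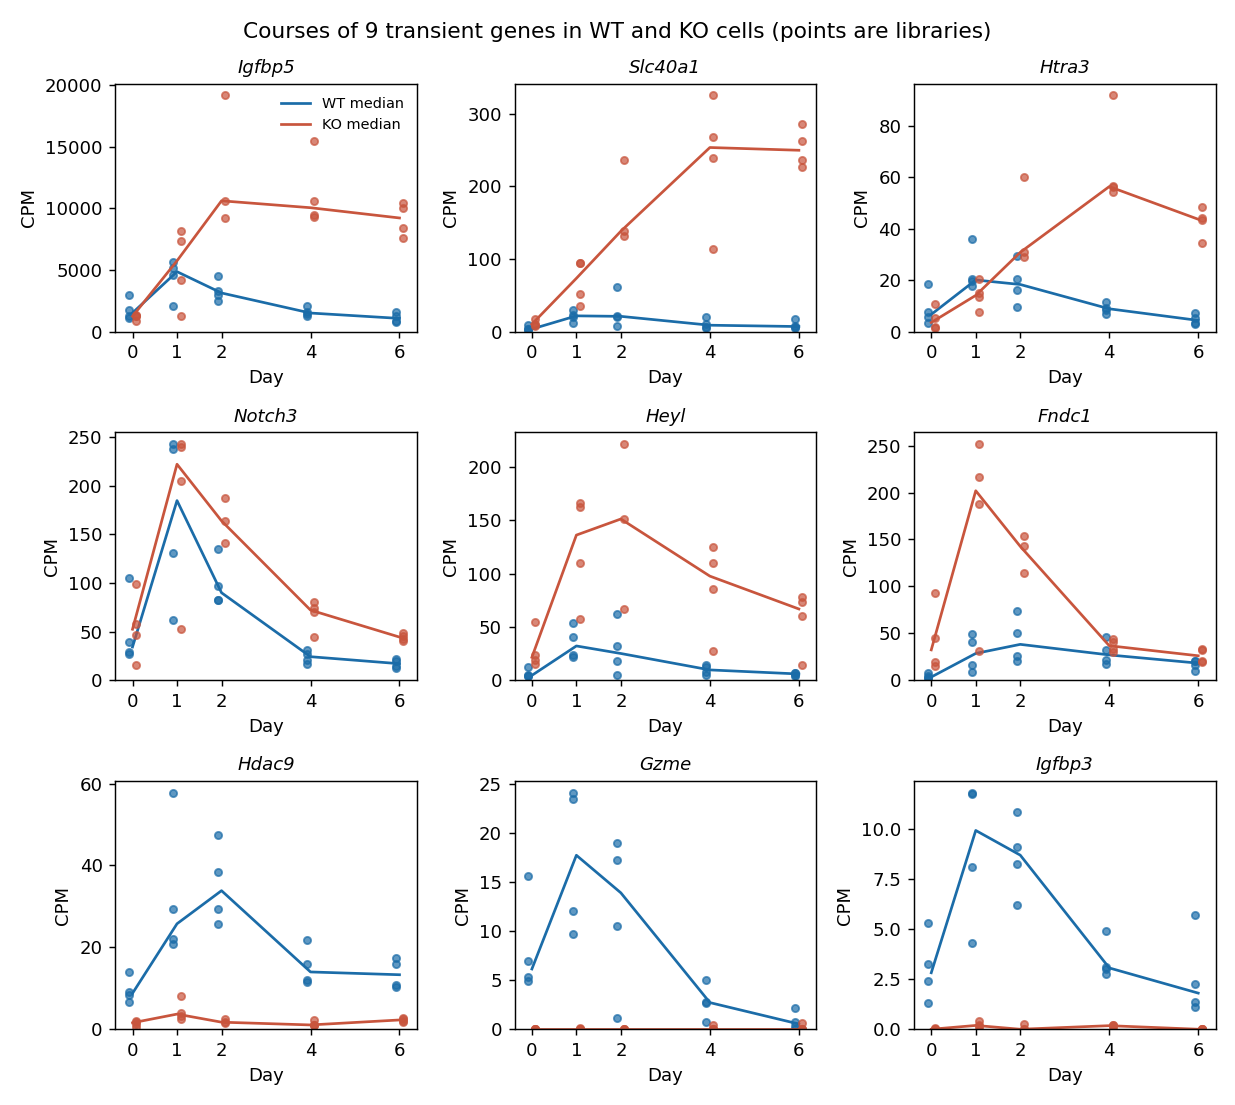
CPM of 9 of the genes by day (x axis) in WT and KO libraries, where points are libraries and lines join group medians, each panel on its own linear axis from 0. Igfbp5, Slc40a1 and Htra3 stay high in the KO to day 6, Notch3, Heyl and Fndc1 have lower KO medians on day 6 than on day 2, and Hdac9, Gzme and Igfbp3 are low on every KO day.

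The second set is the 4 genes whose medians met the rule in both lines, Notch3 and Heyl of the Notch pathway among them. Membership rests on medians, and a fall from KO day 2 to day 6 passed the test for Notch3 and Fndc1 and not for Heyl and Olfml2b. Notch3 is a receptor of the Notch pathway, and Heyl and Hey1 are transcriptional repressors that Notch induces. Notch3 was at 58.23, 15.52, 98.76 and 46.84 CPM on KO day 0, at 239.3, 52.3, 242.5 and 204.4 on day 1, at 163.8, 187.5 and 141.3 on day 2, at 44.93, 80.18, 73.98 and 70.38 on day 4 and at 40.95, 46.07, 42.86 and 49.15 on day 6. In WT it was at 131.2, 61.8, 243.0 and 238.0 CPM on day 1, at 97.1, 82.89, 82.62 and 134.5 on day 2 and at 31.25, 21.22, 16.77 and 27.43 on day 4. Medians of both lines were higher on days 1 and 2 than on day 4, with KO day 1 replicate 3 low, and the KO stayed above WT on day 4 without overlap. The KO rise to day 2 was 1.55 (SE 0.56, edgeR adjusted p = 0.0146), the fall from day 2 to day 6 was -1.86 (SE 0.14, 0.0206), and the day 4 difference from WT was 1.40 (SE 0.28, 0.0182). The rise was lost without KO day 0 replicate 3 or the KO libraries numbered 1 (0.0581 and 0.0606), and the day 4 difference without WT day 4 replicate 4 (0.0628). The fall was lost without KO day 2 replicate 3, any of KO day 6 replicates 1, 3 and 4 or the KO libraries numbered 1 (adjusted p up to 0.111).

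Heyl was at 21.88, 24.26, 53.47 and 40.32 CPM on WT day 1, at 32.58, 17.85, 5.141 and 61.92 on day 2 and at 13.99, 7.481, 5.073 and 12.18 on day 4. In the KO it was at 57.8, 109.7, 166.6 and 162.6 CPM on day 1, at 66.57, 221.5 and 151.3 on day 2, at 27.3, 125.3, 85.55 and 109.9 on day 4 and at 14.04, 60.16, 73.73 and 78.21 on day 6. KO day 6 overlapped KO day 2, and the change between them was -1.35 (SE 0.79, edgeR adjusted p = 0.241). KO replicate 1 was the lowest KO library on each of these 4 days, and still above every WT library of days 1 and 4. The change between the lines was 1.83 (SE 0.47) at day 1 and 3.10 (SE 0.62) at day 4 (edgeR adjusted p = 0.0225 and 1.89e-04). The day 1 call was lost without any of WT day 1 replicates 1 and 3 or KO day 1 replicates 4 and 5 (up to 0.0841).

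Hey1 went the other way. It was at 14.02, 13.5, 30.59 and 45.34 CPM on WT day 1 and at 17.53, 29.34, 20.01 and 69.24 on WT day 2, whereas the KO held 13.46, 9.719, 7.178 and 6.098 on day 1 and 10.19, 8.807 and 5.151 on day 2. The KO was lower at day 1 by -1.48 on the log2 scale (SE 0.51, edgeR adjusted p = 0.00807). That call was lost without WT day 1 replicate 5 (0.0747) and in a fit of only the day 1 groups, with or without the replicate number as a block (up to 0.0889). Of the other 17 Notch pathway genes tested, 2 rose and 5 fell in the KO from day 0 to day 2, where 12.7% of all genes rose and 13.9% fell. At day 4 in the KO against WT, 3 of these 17 were higher and 1 lower, where 13.3% of all genes were higher and 14.2% lower.

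Fndc1, a fibronectin domain protein, was at 49.39, 8.912, 16.85 and 40.59 CPM on WT day 1 and at 73.56, 26.4, 20.98 and 50.34 on WT day 2. In the KO it was at 216.0, 31.78, 251.5 and 187.8 CPM on day 1, at 114.8, 153.5 and 142.7 on day 2 and at 19.6, 32.27, 33.7 and 20.17 on day 6. The KO was higher at day 1 by 2.54 (SE 0.88, edgeR adjusted p = 8.73e-04), although KO replicate 3 lay within the WT range. It fell from KO day 2 to day 6 by 2.36 on the log2 scale (0.013), a call lost without KO day 2 replicate 3 or the KO libraries numbered 1 (up to 0.074). Olfml2b, a secreted olfactomedin-like protein, also met the rule in both lines, with medians of 114.6, 337.7, 280.4, 123.1 and 73.55 CPM over the 5 WT days and 66.92, 192.2, 231.2, 126.2 and 101.1 CPM over the KO days. Its KO libraries of day 2 held 247.1, 231.2 and 143.5 CPM and its WT libraries 290.7, 270.1, 91.74 and 301.0. It rose by 1.45 (SE 0.33) in the KO to day 2 (edgeR adjusted p = 0.00139) and had a change of -1.06 (0.0632) from day 2 to day 6, which did not pass.

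The third set was close to absent from the KO throughout. Its 8 genes with KO medians below 1 CPM on all days were Mest, Aldoc, Gm13415, Igfbp3, Vldlr, Tpd52l1, Gzme and Ifit1. They were picked by those KO levels, so their differences from WT are given as description, without a test. Mest, an imprinted gene of the alpha/beta hydrolase fold family, was at 23.03, 6.75, 10.4 and 10.79 CPM on WT day 1 and at 17.31, 11.75, 7.919 and 10.42 on WT day 2, against 0.5918, 0.0, 0.2243 and 0.0 on KO day 1 and 0.8708, 0.09079 and 0.0 on KO day 2. KO replicate 1 held the highest Mest value of each KO day. The log2 change was -5.86 (SE 0.76) at day 1 and -5.16 (SE 0.79) at day 4.

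Igfbp3, a binding protein of the same family as Igfbp5, was at 11.73, 4.324, 8.125 and 11.79 CPM on WT day 1 and at 8.273, 9.114, 6.206 and 10.87 on WT day 2. No KO library exceeded 0.3945 CPM. The change was -5.50 (SE 0.58) at day 1 and -4.48 (SE 0.41) at day 4, opposite in sign to that of Igfbp5 at day 4. Gzme, a granzyme protease, was at 12.03, 24.05, 9.678 and 23.4 CPM on WT day 1 and had 2 counts over the 4 KO day 1 libraries, and it belongs to a cluster of similar granzyme genes, so its counts are uncertain. Vldlr, a lipoprotein receptor, had 2 counts over the same KO libraries, and its WT libraries numbered 1 were over 2-fold above the others on every day. Aldoc, a glycolytic aldolase, was already low on KO day 0 (68 counts over 4 libraries) and was at 0 in all 4 libraries of KO day 6, which, with 3 counts over the group taken as the floor, is at least 9.37-fold lower. This bound would be smaller if the mates of a pair were counted separately.

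Hdac9, a class IIa histone deacetylase that represses MEF2 targets, was low rather than absent. WT libraries held 29.43, 22.1, 20.85 and 57.69 CPM on day 1, 29.3, 38.38, 25.8 and 47.4 on day 2 and 15.98, 12.0, 11.6 and 21.84 on day 4. KO libraries held 3.354, 2.468, 4.038 and 8.071 CPM on day 1, 1.567, 1.725 and 2.513 on day 2 and 2.184, 1.012, 1.001 and 1.088 on day 4. The lines did not overlap on any of these days. The change was -2.86 (SE 0.47) at day 1 and -3.64 (SE 0.32) at day 4 (edgeR adjusted p = 5.45e-07 and 1.60e-08), and within the KO neither day 2 nor day 6 differed from day 0 in the test (0.516 and 0.228). Slc27a3, a fatty acid transport protein, and Serpinb6b, a serine protease inhibitor, were also lower in the KO on both days, by log2 changes of -1.73 and -1.66 at day 1 and -2.66 and -2.19 at day 4. The Serpinb6b call at day 1 was lost without WT day 1 replicate 5 or KO day 1 replicates 4 or 5 (up to 0.104).

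Over all 63 genes, 22 were lower and 5 higher in the KO than in WT at day 1, where 9.93% of all genes tested were lower and 8.1% higher, with a median log2 change of -0.64 against 0.01. The genes had to reach 5 CPM in WT and not in the KO, where 43 of the 63 did so on day 2, so the choice itself favours lower KO values and nothing is read from the excess over all genes. With the replicate number as a block in a fit of the day 1 groups, 8 were higher, and 3 were higher without WT day 1 replicate 1 or without KO day 1 replicate 5. At day 4 the split was even: 17 were higher and 15 lower, where 13.3% of all genes were higher and 14.2% lower, with a median of -0.25 against 0.01. On the days whose WT libraries chose the genes, and without a test, the KO median was below the WT median in 38 of the 63 genes on day 0, in 45 on day 2 and in 27 on day 6. In bulk RNA, fewer cells that express a gene and less RNA per cell cannot be told apart.

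**Figure D3:**
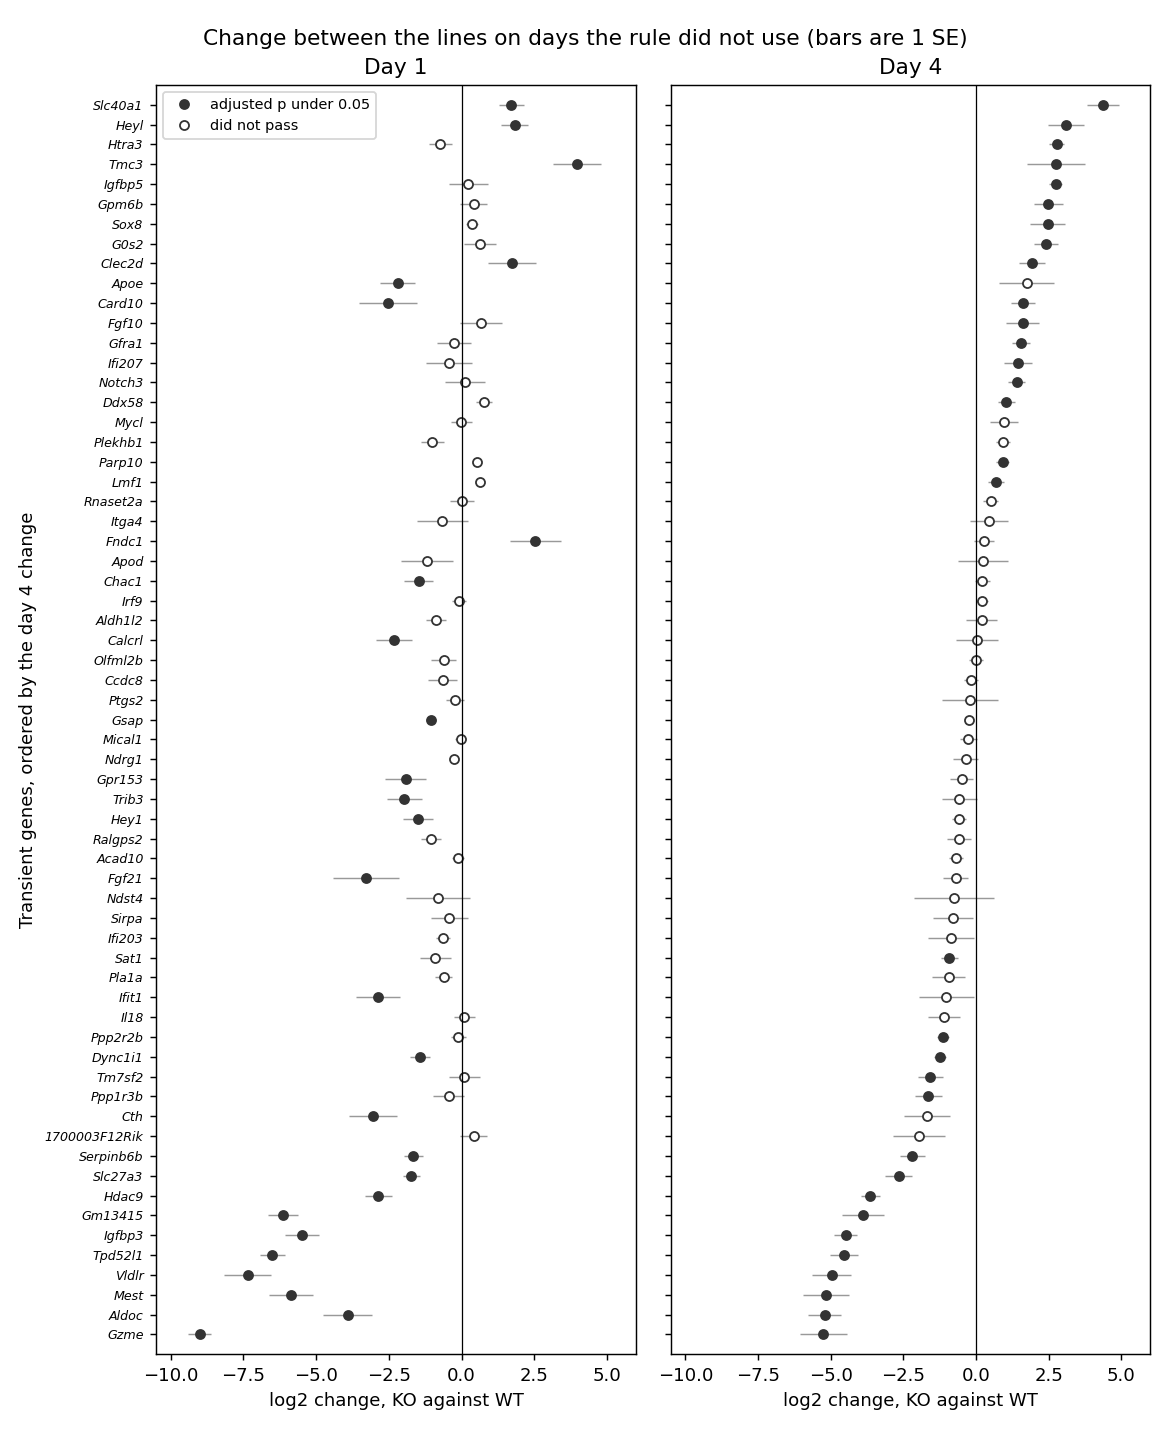
Log2 change between KO and WT (x axis, bars 1 SE) for each of the 63 genes (rows) at day 1 and day 4, with filled points where the edgeR adjusted p is under 0.05 and rows ordered by the day 4 change. At day 1, 22 genes are lower and 5 higher, and at day 4, 15 are lower and 17 higher; sizes for genes with few KO counts, at the lower end, depend on the prior count of the fit.

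Within WT, from day 1 to day 4, 21 of the 63 fell and 1 rose, where 18.1% of all genes tested fell and 12.8% rose. The median log2 change was -0.67 against -0.05. The rule asks for a WT fall from day 2 to day 6, so the choice favours falls and nothing is read from their excess. The count of falls was 13 without WT day 4 replicate 3. Fgf21 was the gene that rose, by 2.24 (SE 0.89, edgeR adjusted p = 0.0113), and 2 genes rose without WT day 4 replicate 5. Notch3 fell by 2.74 on the log2 scale (SE 0.52, edgeR adjusted p = 2.84e-05) and Gsap, a gamma-secretase activating protein, by 1.31 (5.00e-04).

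The change from day 1 to day 4 itself was compared between the lines. In 6 of the 63 genes it was higher in the KO and in 0 lower. Of all genes tested, 2.21% were higher and 1.36% lower, and the median was 0.81 for the 63 against 0.00. An unadjusted p of 0.05 was passed by 20 of the 63, and DESeq2 called 10 higher and 1 lower. The rule asks for a fall in WT from day 2 to day 6 and asks nothing of the KO. The choice thus favours a higher change in the KO, and nothing is read from the excess over all genes. The 6 were Card10 at 4.16 (SE 1.08), Apoe at 3.93 (SE 1.12), Htra3 at 3.50 (SE 0.46), Slc40a1 at 2.65 (SE 0.68), Igfbp5 at 2.50 (SE 0.70) and Sox8 at 2.09 (SE 0.64). Their edgeR adjusted p were 0.00217, 0.0297, 0.00189, 0.0168, 0.00359 and 0.0464. The Apoe call was lost in 9 of the fits that leave out libraries (adjusted p up to 0.0884) and the Sox8 call in 14 (up to 0.129). Apoe, a lipoprotein of lipid transport, was at 4.483, 6.222, 9.32 and 22.53 CPM on WT day 1 and 1.697, 3.914, 17.65 and 2.458 on WT day 4, against 1.973, 1.234, 1.738 and 4.305 on KO day 1 and 6.162, 13.46, 27.93 and 43.03 on KO day 4. The lines did not overlap on day 1 and overlapped on day 4. Sox8, a transcription factor present in myoblasts, was at 5.15, 1.74, 3.003 and 0.7821 CPM on WT day 4 and 12.09, 15.19, 10.81 and 24.15 on KO day 4, with every KO library above every WT library.

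Genes of the integrated stress response made up 6 of the 63: Aldh1l2 (mitochondrial folate enzyme), Chac1 (glutathione-degrading enzyme), Trib3 (pseudokinase induced with ATF4), Fgf21 (secreted stress hormone), Cth (cysteine synthesis) and Vldlr. WT day 2 replicate 4, the library with the high unfolded protein response sum, was the highest WT day 2 library in 5 of these 6. Trib3 was at 45.59, 71.59, 356.7 and 10.87 CPM on WT day 2, Aldh1l2 at 155.9, 95.4, 849.7 and 57.1, and Chac1 at 80.04, 77.77, 163.9 and 19.74. Without that library Aldh1l2, Trib3, Fgf21 and Vldlr no longer met the rule, and Chac1 and Cth did. The part of that library's state in the levels of these genes was not tested.

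**Figure D4:**
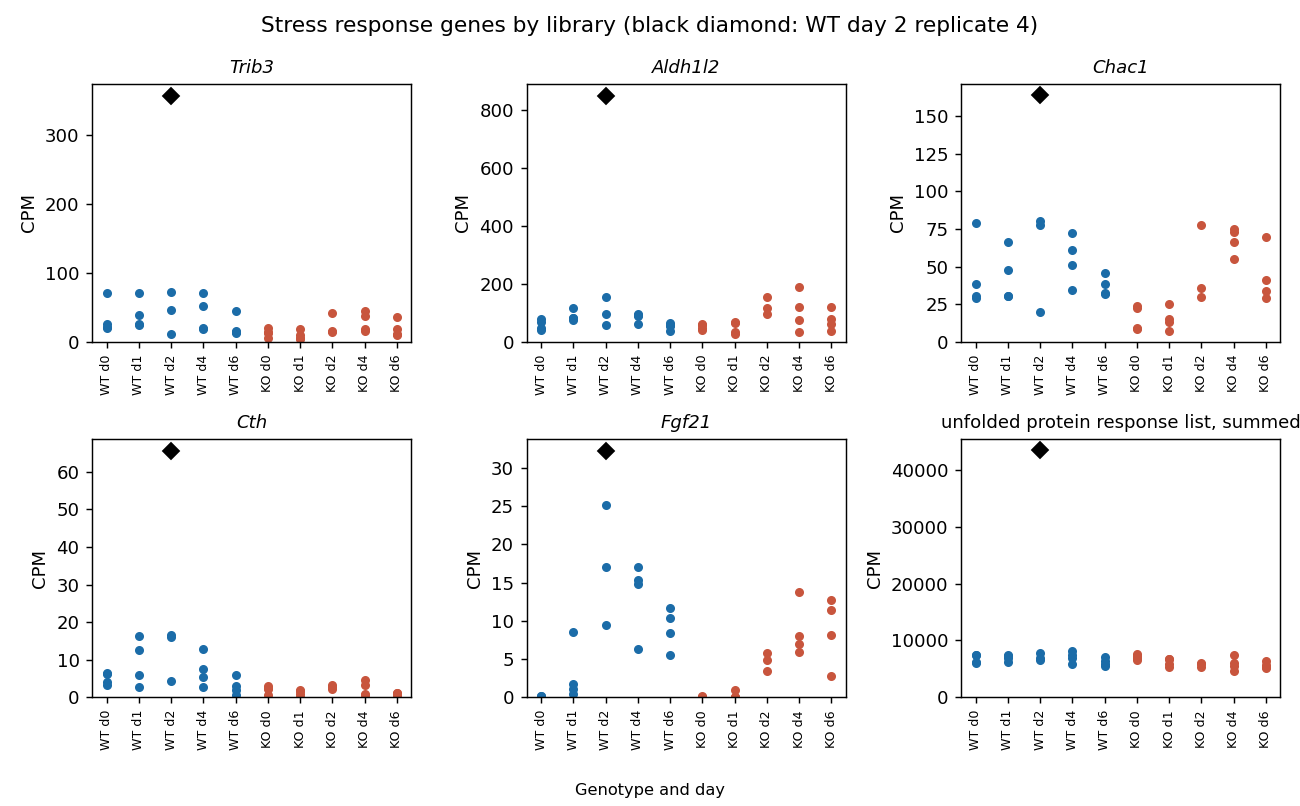
CPM of 5 integrated stress response genes and the sum of 34 unfolded protein response genes (y axes, from 0) in every library by genotype and day, with WT day 2 replicate 4 as a black diamond. That library is the highest of its group in all 6 panels, and for the sum it is at 43430 CPM where no other WT day 2 library exceeds 7726.

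In the KO the stress genes followed separate courses. Fgf21 was at 0.0, 0.0, 0.1685 and 0.0 CPM on KO day 0 (4 counts in all), at 0.09864, 0.0, 0.0 and 0.9865 on day 1, at 5.747, 4.903 and 3.392 on day 2, at 8.034, 5.872, 7.008 and 13.71 on day 4 and at 8.189, 11.48, 2.756 and 12.74 on day 6. WT held 9.467, 17.02, 32.14 and 25.17 CPM on day 2 and 5.469, 8.377, 10.33 and 11.72 on day 6, so the KO was below WT on day 2 and overlapped it on day 6. Fgf21 rose in the KO by day 2 and was above day 0 on day 6 (edgeR adjusted p = 2.48e-05 and 5.25e-07). At day 1 it was lower in the KO by -3.28 (SE 1.13, 0.00387), a call lost in a fit of only the groups compared (0.13) and without WT day 1 replicate 5 (0.111), whose 8.502 CPM was the highest of that group.

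Chac1 was at 8.358, 22.63, 23.68 and 9.098 CPM on KO day 0, at 77.89, 35.95 and 29.46 on day 2 and at 75.04, 66.21, 73.08 and 55.37 on day 4. Its rise to day 2 was 1.54 (SE 0.60, edgeR adjusted p = 0.0203), lost without KO day 0 replicates 1 or 5, KO day 2 replicate 1 or the KO libraries numbered 1 (up to 0.345). Of the 6 stress genes, 5 were lower in the KO than in WT at day 1, all but Aldh1l2 (log2 change -0.88, edgeR adjusted p = 0.246). Of all genes tested 9.93% were lower, and the choice of genes high in WT favours that direction. Vldlr is among these 5 and was also lower at day 4. Its low KO levels put it in the third set above, so its calls are description only. The Trib3 call at day 1 (-1.96, 0.0481) was lost without 6 single libraries, WT day 1 replicates 3, 4 and 5 and KO day 1 replicates 1, 4 and 5, and without the KO libraries numbered 1 together (up to 0.144), and that of Chac1 (-1.48, 0.0249) in a fit of only the groups compared and without WT day 1 replicates 1 or 3 or KO day 1 replicates 4 or 5 (up to 0.0874). Among the other 30 genes of the list tested, 7 were lower and 2 higher at day 1, with a median of -0.54. The shares over all genes tested were 9.93% lower and 8.1% higher. Cth was at 16.08, 16.68, 65.44 and 4.435 CPM on WT day 2 and at 3.309, 2.088 and 2.638 on KO day 2.

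Genes of the interferon response, and of related nucleic acid sensing, were a smaller group at low levels. Ifit1, an antiviral effector, was at 0.6897, 3.586, 4.421 and 3.565 CPM on WT day 1 and at 0.8529, 6.93, 6.298 and 4.546 on day 2, with replicate 1 apart from the other 3 libraries on both days. KO libraries held 0.7891, 0.1543, 0.1122 and 0.5381 CPM on day 1 and 0.3483, 0.6355 and 0.6281 on day 2. The log2 change of Ifit1 at day 1 was -2.87 (SE 0.75), given as description because its low KO levels put it in the third set. It is counted among the 22 lower genes, and that call was lost with the replicate number as a block in a fit of the day 1 groups (edgeR adjusted p = 0.0507). Irf9, a subunit of the interferon-activated complex ISGF3, was at 15.05, 19.85, 33.81 and 19.46 CPM on WT day 2 and at 12.89, 15.62 and 15.95 on KO day 2, and rose in the KO to day 2 by 0.91 (SE 0.24, edgeR adjusted p = 0.00888), a call lost without KO day 2 replicate 5 (0.0515). Ddx58, which encodes the RNA sensor RIG-I, was at 14.12, 6.479, 12.31 and 11.75 CPM on KO day 4 and at 5.618, 4.871, 3.52 and 6.313 on WT day 4, a log2 change of 1.04 (SE 0.29, edgeR adjusted p = 0.0166) lost without WT day 4 replicate 4 or KO day 4 replicate 1 (up to 0.0669). Of the other 24 interferon genes tested, 10 fell and 1 rose in WT from day 1 to day 4, with a median log2 change of -1.11. The shares over all genes tested were 18.1% for falls and 12.8% for rises.

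Ifi207 and Ifi203 belong to a cluster of similar genes on chromosome 1, so reads may be shared between copies. Ifi207 was at 8.315, 7.608, 26.58 and 7.595 CPM on WT day 2 and at 6.574, 7.536 and 22.61 on KO day 2. It rose in the KO by 3.42 (SE 0.62) to day 2 and was 3.65 (SE 0.42) above day 0 on day 6 (edgeR adjusted p = 6.44e-05 and 4.74e-06), when KO libraries held 11.85, 7.109, 17.23 and 20.65 CPM against 3.977, 3.96, 3.169 and 2.705 in WT. Ifi203 did not pass the test in any contrast.

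Other genes with high or sharply peaked WT medians followed mixed courses. Ccdc8, a subunit of the 3M complex, was at 28.55, 12.41, 24.35 and 17.7 CPM on KO day 0, at 72.8, 71.45 and 69.85 on day 2 and at 57.18, 80.66, 54.44 and 63.19 on day 6, and both later days lay above day 0. It rose in the KO by 1.75 (SE 0.25) to day 2 and was 1.60 (SE 0.29) above day 0 on day 6 (edgeR adjusted p = 3.89e-04 and 2.37e-04). Gpr153, an orphan G protein-coupled receptor, rose by 2.22 (SE 0.83) to KO day 2 (edgeR adjusted p = 0.0106) and was lower in the KO than in WT at day 1 by -1.92 (0.0209), a call lost without WT day 1 replicate 5 or KO day 1 replicate 3 (up to 0.0719). Apod, a lipocalin, was at 10.15, 14.16, 1.852 and 18.35 CPM on WT day 2 and at 1.916, 3.314 and 2.889 on KO day 2, and Pla1a, a phospholipase, had day 2 medians of 145.8 and 86.56 CPM; neither passed a test. Ndrg1, a gene of hypoxia and growth arrest, was at 693.2, 455.6, 1097 and 205.3 CPM on WT day 2 and at 553.9, 274.5 and 283.2 on KO day 2, and passed no test. Ptgs2, which encodes the prostaglandin synthase COX-2, was at 199.1, 80.07, 532.4 and 29.77 CPM on WT day 2 and passed no test either. Dync1i1, a dynein intermediate chain, had a WT day 2 median of 147.0 CPM against 34.27 in the KO, and was lower in the KO by -1.44 (SE 0.34) at day 1 and by -1.23 (SE 0.20) at day 4 (edgeR adjusted p = 0.00277 and 0.00629). Sat1, a polyamine-degrading enzyme, had medians of 494.5 and 171.8 CPM on day 2 and was lower in the KO by -0.92 at day 4 (0.0323), a call lost without WT day 4 replicates 3 or 4, KO day 4 replicates 1, 4 or 5 or the KO libraries numbered 1 (up to 0.105). Mical1, an actin-oxidising enzyme, and Tm7sf2, a sterol reductase, were below KO day 0 on KO day 6, by log2 changes of -1.25 and -1.91. The Tm7sf2 call was lost without KO day 0 replicate 1 or the KO libraries numbered 1 (edgeR adjusted p up to 0.462). Of the other 29 sterol synthesis genes tested, 20 were lower and 0 higher in the KO than in WT at day 4. Of the other 32 genes of hypoxia and glycolysis, 13 were lower and 0 higher. Among all genes tested at day 4, 14.2% were lower and 13.3% higher. Of the other 17 genes of the insulin-like growth factor axis, 8 rose and 1 fell in the KO from day 0 to day 2. Their median log2 change was 0.87, and 12.7% of all genes tested rose and 13.9% fell.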

How the data were processed

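The deposited table holds raw counts per gene, which the authors made with FastQC 0.11.9, STAR 2.7.9 and featureCounts 2.0.3, per the submitters' processing notes. The library kit marks strand, per the labels' protocols; the strand setting of the counting is not given in the sources used here, so antisense and overlapping genes may share reads. Of values above 0, 64.4% are even, so mates may have been counted separately; halved counts were run as an alternative. Of the columns, 1 named as KO day 2 number 4 matched no sample label and was not analysed here, so KO day 2 has 3 libraries. All 29980 identifiers matched the GENCODE annotation of GRCm38; the notes name GRCm38 and GRCh38 without a role. The genes and lists were chosen with earlier results of these data known.

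All 39 libraries entered 1 edgeR model with a mean for each of 10 groups (edgeR 4.0.16, limma 3.58.1, R 4.3.3), with TMM normalization (factors 0.904 to 1.05), filterByExpr and robust quasi-likelihood F-tests: 13780 genes tested, all 63 among them, 29 residual degrees of freedom. Calls are Benjamini-Hochberg adjusted p under 0.05 over all genes tested. Log2 changes come from the fit, and each SE from the log2 CPM (prior count 2) of the groups compared. The fit was tested on simulated data. Library totals of 6838281 to 28902526 counts limit the low genes; floors cover counting error only.

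Replicate numbers recur across groups. Same-numbered libraries deviated together (every r over 0.1) for KO day 2 against day 0 (0.142 to 0.291) and KO against WT at day 1 (0.291 to 0.571) and day 4 (0.126 to 0.503). The other 3 contrasts between 2 groups were uneven, with replicate 1 the highest in each. There r ran from 0.0316 to 0.387 for KO day 6 against day 2, from 0.0541 to 0.243 for KO day 6 against day 0 and from 0.063 to 0.363 for WT day 4 against day 1. Alternatives were DESeq2 1.42.0 and its size factors, no filter, glmTreat at 1.5-fold, a fit of the compared groups, a replicate block, halved counts, other rules of choice and leaving out each library. Leaving out the KO libraries numbered 1 together, and WT day 2 replicate 4 in every contrast, was added after seeing the data, as was keeping only genes that stay without any single WT library. Genes named are drawn from the 12 most abundant and the 12 sharpest in WT, the 5 largest called changes each way per contrast, those beside the limits, up to 6 per list and up to 10 that meet the rule in the KO; others named, the genes given in every library, the RBPJ and ISRE motifs and the promoters printed were chosen after their values were seen.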

Additional observations from a re-analysis of the deposited data

Results flagged for a closer look

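In groups of 4 libraries, a value was singled out when its gap to the nearest other library was large against the range of the group (Dixon's test). Over 252 groups, 30 values were singled out; chance flags about 1 in 20 groups.

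WT day 2 replicate 4 was high in Aldh1l2 (849.7 CPM), Ifi207 (26.58 CPM) and the unfolded protein response sum (43430 CPM) and low in Olfml2b (91.74 CPM). WT day 0 replicate 4 stood apart in Notch3 (105.5 CPM), Heyl (12.19 CPM), Trib3 (71.42 CPM) and Ifi207 (1.14 CPM), and other WT libraries numbered 4 in Trib3 on day 6 (45.06 CPM), Htra3 on day 1 (36.09 CPM) and Apoe on day 4 (17.65 CPM). WT day 1 replicate 5 stood apart in Fgf21 (8.502 CPM) and Aldh1l2 (117.8 CPM), and WT day 1 replicate 3 in the integrated stress response sum (5645 CPM). WT replicate 1 stood apart in Slc40a1 on day 0 (8.644 CPM) and, on day 4, in Igfbp3 (4.916 CPM) and Card10 (3.628 CPM).

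Among KO libraries, replicate 1 stood apart in Hdac9 on day 4 (2.184 CPM), Mest on days 4 and 6 (0.624 and 0.2925 CPM) and Gzme on day 6 (0.5849 CPM). Replicate 3 stood apart in Htra3 (91.93 CPM) and Gzme (0.405 CPM) on day 4 and in Card10 on day 0 (0.0 CPM). Replicate 4 stood apart on day 0 in Fgf21 (0.1685 CPM) and Igfbp3 (0.08427 CPM) and on day 4 in the integrated stress response sum (6067 CPM). Replicate 5 stood apart on day 1 in Fgf21 (0.9865 CPM) and Gzme (0.08968 CPM) and on day 6 in Apoe (29.06 CPM). The KO values below 1 CPM rest on few counts.

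The log2 change from day 1 to day 4 differed between the lines, KO minus WT, in Card10 (4.162), Apoe (3.932), Htra3 (3.501), Slc40a1 (2.65), Igfbp5 (2.5) and Sox8 (2.087), by the interaction test in edgeR.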

How the results depend on the processing

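Of 137 single-gene calls, 81 held under every alternative run and 56 were lost under at least 1, and 0 reversed. The number of genes was 118 at a minimum of 1 CPM, 230 at 1.5-fold and 15 at 3-fold, of which 8, 46 and 0 also met the rule in the KO, and 77 (1.5-fold) and 6 (3-fold) peaked on KO day 2. Leaving out single WT libraries gave 57 to 79 genes. Keeping only the genes that stay without any 1 WT library, a shorter list by construction, gave 14 rises from KO day 0 to 2, 9 higher at KO day 6 against day 0, 2 higher and 10 lower at day 1 and 8 higher and 6 lower at day 4 in the KO against WT, and 0 rises and 11 falls in WT from day 1 to 4.

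From KO day 2 to 6, rises were 1 with DESeq2, 1 with a replicate block in all groups, 3 in a fit of only the groups compared and 7 with both, against 0, and falls were 9 with DESeq2, 0 with glmTreat, 9 with only the groups compared, 16 with the block in those groups and 2 without the KO libraries numbered 1, against 4. With glmTreat, genes higher in the KO were 3 at day 1 and 10 at day 4, WT falls were 9 and higher genotype-by-day changes were 3. WT rises from day 1 to 4 were 2 with DESeq2, 2 with only the groups compared, 2 without the KO libraries numbered 1, 2 without WT day 2 replicate 4 and 3 with the replicate block in the groups compared. Higher genotype-by-day changes were 10 with DESeq2, 11 with the replicate block in all groups and 10 with it in the groups compared; lower ones were 1 with DESeq2. With the replicate block in the day 1 groups, 8 genes were higher in the KO. The cause of these shifts was not tested. Outside the contrasts where every r was over 0.1, the block in the groups compared lost the calls of Chac1 (edgeR adjusted p = 0.055) and Clec2d (0.057) at KO day 6 against day 0, Plekhb1 (0.0558) in WT and Sox8 (0.0593) in genotype by day.

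Leaving out single libraries gave 18 to 25 rises and 0 falls (KO day 2 against 0), 0 rises and 0 to 6 falls (day 6 against 2), 18 to 20 higher and 3 to 5 lower (day 6 against 0), 3 to 5 higher and 16 to 22 lower (day 1), 13 to 17 higher and 13 to 16 lower (day 4), 1 to 2 rises and 13 to 21 falls (WT), and 4 to 7 higher and 0 to 1 lower (genotype by day), where the 1 lower came without WT day 1 replicate 1 or KO day 1 replicate 3. Depth limits genes below about 1 CPM, where a library of day 6 holds few counts.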
